A study of Oikopleura dioica with 12 samples.

Results

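Of the 14574 Oikopleura dioica genes with at least 100 reads over 12 sequencing libraries, 2385 were members of predicted 2-gene operons. The operons were read from the gene models alone: models on one strand of a scaffold were put in order, neighbours separated by at most 60 bp were joined, and operons of exactly 2 models were kept. This gave 1356 operons with 2712 genes, of which 48 were not in the count table and 279 had fewer than 100 reads (136 second and 143 first genes, in the direction of transcription). The members were 1196 second and 1189 first genes, and 1132 operons had both genes measured. A further 121 operons had one measured gene (the second in 64 and the first in 57) and 103 had none. The read minimum passed 89.5% of the counted genes of 2-gene operons and 84.7% of all counted genes. At the minimum, 25 members had 100 to 120 reads and 33 genes of 2-gene operons had 80 to 99 and were left out.

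O. dioica is a planktonic tunicate that packs many of its genes into operons, in which neighbouring genes are transcribed together into one precursor RNA. The precursor is cut into separate mRNAs. The downstream mRNA receives a short spliced leader at its start by trans-splicing, so that each mRNA can be capped, kept, degraded and translated on its own. Genes of one operon therefore share a promoter, whereas the amounts of their mRNAs and of the ribosomes on them can differ.

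The samples were day 6 females, taken as whole animals and pooled, after 1.5 h in seawater with 1 μM Torin 1, an inhibitor of the growth-regulating kinase mTOR, or with the vehicle DMSO. Each treatment has 3 replicates of RPFs (ribosome protected fragments, the stretches of mRNA that a bound ribosome shields from nuclease) and 3 of total RNA. This gave 4 groups, namely RPF Torin 1, RPF DMSO, RNA Torin 1 and RNA DMSO. Per the study's methods, the RNA of a replicate came from a subset of the animals collected for its RPFs, and the ovary makes up most of an animal's mass at this stage. The libraries of a treatment are thus averages over pooled whole animals and all their tissues.

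Library totals ran between 91549 counts in RPF Torin 1 replicate 3 and 27462750 in RNA DMSO replicate 3. RPF DMSO replicate 1 held 22889270 counts, against 91549 to 874562 in the other RPF libraries. Its log counts across genes correlated at r = 0.950 with those of RNA Torin 1 replicate 3, and at 0.722 to 0.768 with the other RPF libraries. The replicate 2 RNA libraries of Torin 1 and DMSO differed by little more than sampling noise (chi-square per degree of freedom 1.07, against 30.4 to 925 in the other pairs of RNA libraries). They are labelled as different treatments and were kept apart. Whether these 4 libraries (the libraries in doubt) hold the assay and treatment on their labels was not tested, so their values are those of the library so labelled, and the main counts are given with and without them. In RPM, which are counts scaled to each library's total, a count of 0 allowed a level of up to 0.109 in the library with most counts and 32.8 in the one with fewest, for counting error only. In RPF Torin 1 replicate 3, 868 members (36.4%) had no count, against 0 to 359 members in each of the other libraries. Members took between 9.59% and 22.4% of a library's counts.

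The gap between the genes of the 1132 complete operons had a median of 29 bp (quartiles 22 and 36 bp). The most common gap was 28 bp (67 operons), and 683 gaps (60.3%) lay at 20 to 40 bp. In 11 operons the models overlapped by 1 base and in 19 they touched. The rule's limit fell in the tail of the gaps: 80 operons had gaps of 50 to 60 bp, and 175 neighbouring pairs just outside had gaps of 61 to 70 bp. Second and first genes were alike in structure. Median exon length was 1098 bp in second and 1074.5 bp in first genes, against 1215 bp in genes outside operons. The median number of coding exons was 4 in second and 5 in first genes, and 16 second and 13 first genes had a single coding exon. The second gene was the longer one in 547 operons.

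**Figure D1:**
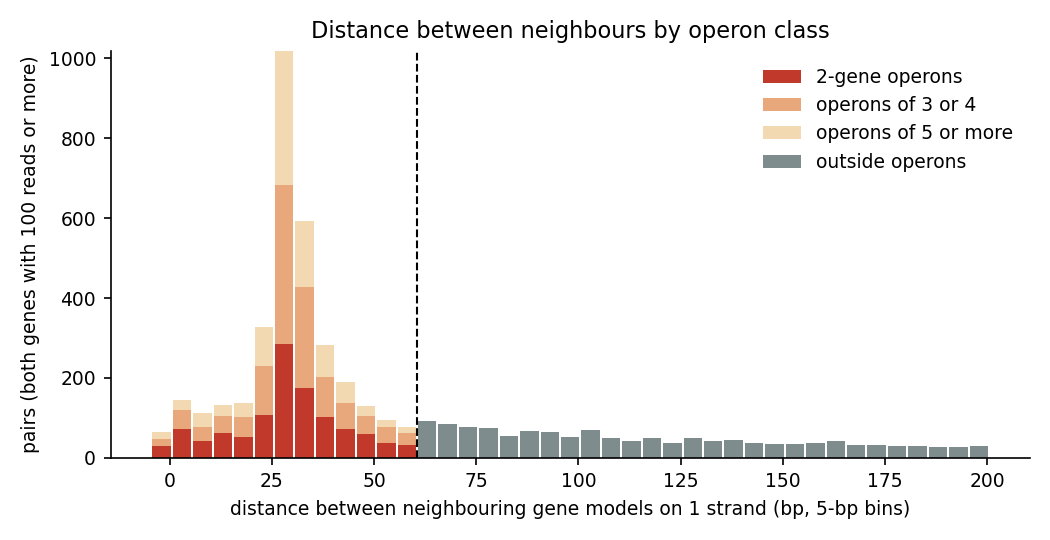
Pairs of neighbouring genes on one strand, both with 100 reads or more (y axis, number of pairs), by the distance between their models (x axis, bp, bins of 5 bp). Bars are stacked by class, the dashed line is the 60 bp limit of the operon rule, and the 2-gene operons (red) peak near their median of 29 bp.

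RNA levels of the 2 genes of an operon were compared within each DMSO library as counts per kb of exon, so that the difference does not depend on how libraries are scaled to each other. In RNA of DMSO animals the second gene exceeded the first beyond the replicate spread in 307 operons (27.1%) and fell short of it in 262 (23.1%), called at an adjusted p under 0.05 (edgeR's quasi-likelihood test, Benjamini-Hochberg adjustment over 12045 pairs of neighbours on one strand). Such p-values measure the spread between the 3 collections of a group. These 569 operons were 50.3% of the total, against 60.4% of all 12045 pairs. The median difference was 0.12 on the log2 scale for 2-gene operons and 0.03 for all pairs. Without its sign, the median was 0.85 for 2-gene operons and 1.53 for all pairs. Large differences were found in the operons too: 512 (45.2%, against 63.0% of all pairs) had a difference over 1 log2 unit, 235 (20.8%, against 40.7%) over 2, and 23 (2.03%, against 9.93%) over 5. The second gene was the higher one in 51.1% to 53.5% of operons in each of the 6 RNA libraries, so neither position was the abundant one as a rule. Leaving out RNA DMSO replicate 1, 2 or 3 gave calls in 30.1%, 26.8% or 53.6% of the operons, against 42.6%, 35.7% or 65.6% of all pairs. In these whole animals, fewer cells of a type and less RNA per cell cannot be told apart.

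**Figure D2:**
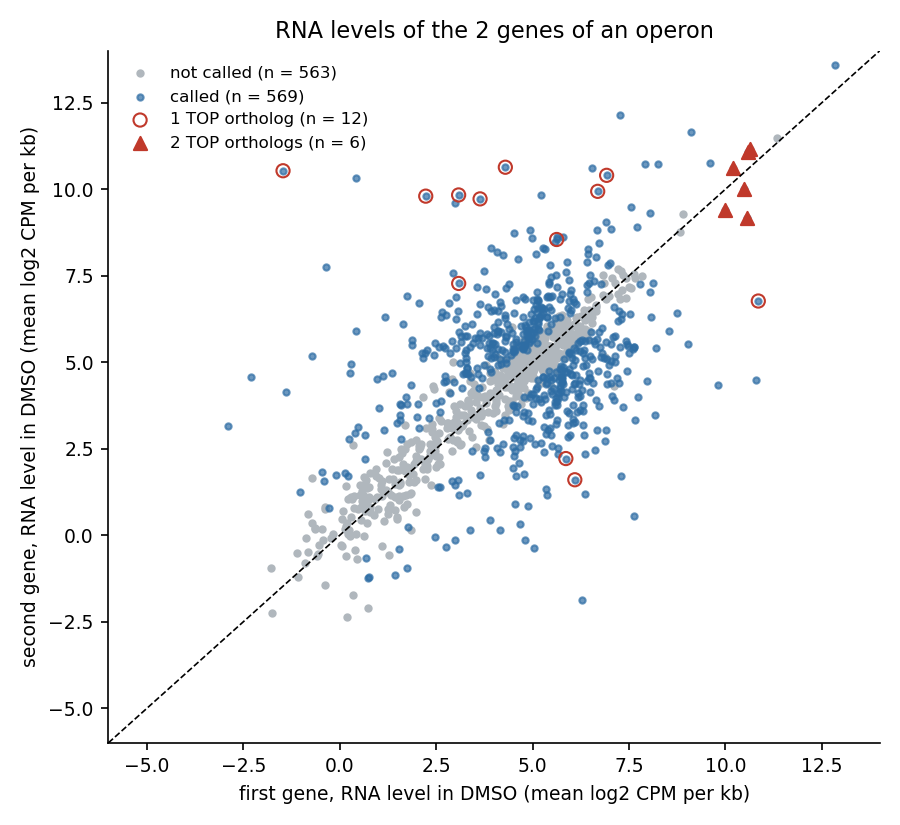
RNA level of the second gene (y axis) against that of the first gene (x axis) in 1132 operons, both as mean log2 CPM per kb over the DMSO libraries. Each point is an operon (called in blue, not called in grey, with a listed TOP ortholog in red), and the 569 called operons lie on both sides of the dashed line of equal levels (r = 0.669).

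Directions called in DMSO animals were looked up in Torin 1 animals, whose libraries did not enter that test. Of the 569 called operons, 515 had the same sign in RNA Torin 1 replicate 1 and 517 in replicate 3, and 481 (84.5%) in both. Among the 563 operons that were not called, 278 (49.4%) kept their sign in both. RNA Torin 1 replicate 2 gave the same sign in 569 of 569, but this library was the one nearly equal to RNA DMSO replicate 2.

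Among the most abundant operons, the genes' RNA levels ranged between near equality and a difference of 4.86 log2 units. In the operon on scaffold 1 (+ strand), GSOIDG00000966001 (2968772 to 2969794, 4 coding exons) follows GSOIDG00000965001 (2968152 to 2968750, 3 coding exons) after 21 bp. The second gene had 593, 3745 and 995 RPM per kb in RNA of Torin 1 animals and 2892, 3767 and 2957 in DMSO animals. The first gene had 372, 3419 and 1512 RPM per kb in RNA of Torin 1 animals and 2038, 3404 and 3447 in DMSO animals. In both treatments 2 libraries had the second gene on top and replicate 3 the first, and the difference in DMSO animals was 0.14 (SE 0.20, adjusted p = 0.571). On scaffold 34, GSOIDG00010652001 follows GSOIDG00010651001 after 33 bp (second gene at 325165 to 326080, first at 324137 to 325131, + strand). It had 618, 5403 and 1652 RPM per kb in RNA of Torin 1 animals and 4282, 5451 and 5355 in DMSO animals, against 45.3, 214 and 96.4 and then 156, 227 and 143 RPM per kb for the first gene. The second gene was higher in each of the 6 RNA libraries, by 4.86 (SE 0.22, adjusted p = 0.000893) in DMSO animals. Among the 6 RNA libraries, each of these 4 genes was lowest in Torin 1 replicate 1. In 2 further abundant operons the first gene has an exon length of only 108 bp (GSOIDG00010389001 with GSOIDG00010390001, gap 1 bp, difference 0.74, adjusted p = 0.0207) and 165 bp (GSOIDG00003134001 with GSOIDG00003133001, gap 9 bp, difference 2.56, adjusted p = 0.00313). The first of these calls was lost without RNA DMSO replicate 1 (adjusted p = 0.220) and without replicate 2 (0.0635).

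The widest gaps in level were found where one gene had little RNA in DMSO animals. On scaffold 109 (- strand), GSOIDG00001856001 (38740 to 40344) had 1162, 1442 and 1730 RPM per kb in RNA of DMSO animals, against 1.32, 1.70 and 1.25 for GSOIDG00001857001 (40405 to 43950), a difference of 9.99 (SE 0.30, adjusted p = 0.000893). This pair lies at the rule's limit with a gap of 60 bp. The first gene was not silent in all libraries: it had 7.85, 1.64 and 212 RPM per kb in RNA of Torin 1 animals, and 113, 334 and 126 in RPFs of Torin 1 animals against 233, 14.9 and 87.4 in RPFs of DMSO animals. Its RPFs exceeded its RNA by 6.53 in DMSO animals (adjusted p = 0.00509), and by 5.25 without RPF DMSO replicate 1. GSOIDG00002356001 on scaffold 11, 3 bp after GSOIDG00002357001, had 211, 305 and 206 RPM per kb against 0.993, 0.958 and 0.442 (difference 8.29, SE 0.37, adjusted p = 0.000893). In both operons the lowest value of the second gene in RNA of DMSO animals was far above the highest of the first there. The opposite order was found on scaffold 119, where GSOIDG00002092001 had 2.50, 3.72 and 0.265 RPM per kb and GSOIDG00002093001, 59 bp upstream, 180, 205 and 292 (difference -7.04, SE 1.10, adjusted p = 0.00737). On scaffold 48, GSOIDG00012934001 differed by -6.37 log2 units from GSOIDG00012933001 (SE 0.51, adjusted p = 0.0017), but its model has only 77 bp of exon. Of second genes with a description that were lower, a kelch repeat gene (GSOIDG00006332001) differed from its first gene by -3.19 (SE 0.40, adjusted p = 0.00419) and the gene of CCDC146 (GSOIDG00010369001), a coiled-coil domain protein, by -2.92 (SE 0.60, adjusted p = 0.0157, 0.0581 without RNA DMSO replicate 1).

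The agreement between the 2 RNA levels varied with the gap. Across 1132 operons the levels of second and first gene correlated at r = 0.669 in DMSO animals, a description over pairs that share their libraries, depth and scaling. It was 0.790 for 249 operons with gaps of 0 to 20 bp, 0.602 for 670 with 21 to 40 bp and 0.612 for 202 with 41 to 60 bp. In the same order, 36.9%, 56.1% and 46.5% of operons were called for an RNA difference, and their median RNA levels were 3.79, 5.04 and 4.68 on the log2 scale (CPM per kb), so that the class with the fewest calls also had the lowest level. The part of the level in these shares was not tested. The 11 overlapping pairs had a median difference of 2.86 without sign. Neighbours in operons of 3 or more had r = 0.363 (2174 pairs). Outside operons, r was 0.591 for neighbours 61 to 200 bp apart (1337 pairs), 0.433 at 201 to 1000 bp (1879), 0.258 at 1001 to 5000 bp (2678) and 0.085 past 5000 bp (2845). Outside operons the values thus fell step by step with distance.

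**Figure D3:**
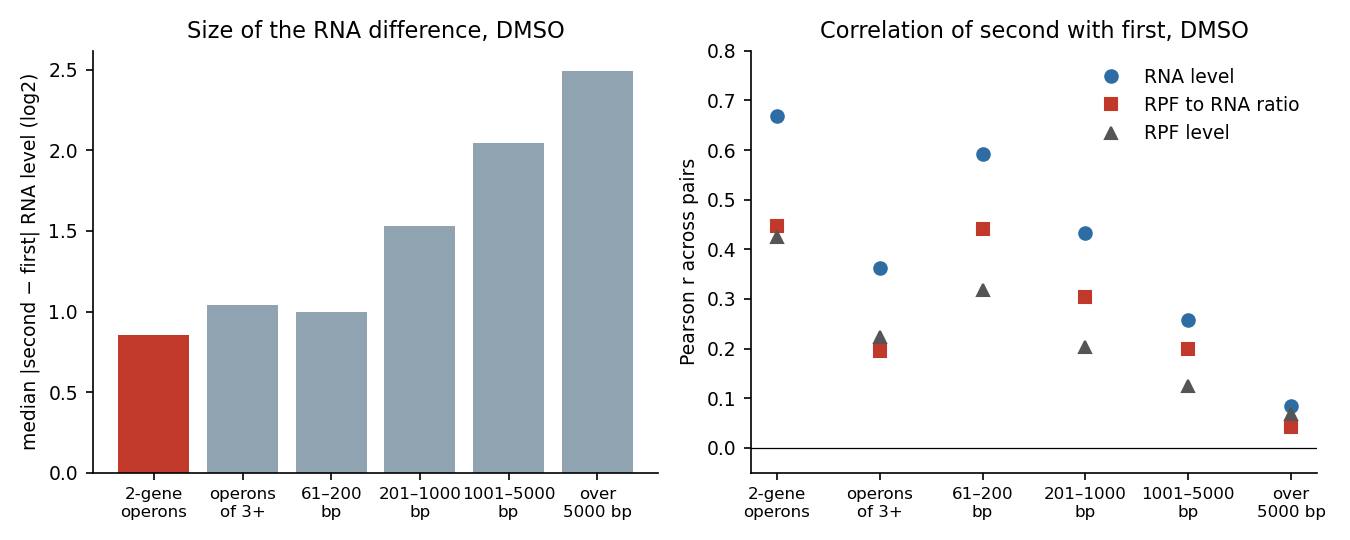
Pairs of neighbouring genes by class (x axis: 2-gene operons, operons of 3 or more, and pairs outside operons by distance). Bars give the median size of the RNA difference in DMSO animals (log2), which is 0.85 in 2-gene operons and 2.49 past 5000 bp, and points the correlation of second with first gene across pairs for RNA level, RPF to RNA ratio and RPF level.

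Ribosome footprints followed the RNA in most of the called operons. In RPFs of DMSO animals 221 operons (19.5%) were called, 116 with the second and 105 with the first gene higher, against 31.6% of all pairs. Without RPF DMSO replicate 1, 321 (28.4%, against 36.1% of all pairs) were called, 171 and 150 in the 2 directions. Without replicate 3 the share was 6.54% (16.9% of all pairs), without replicate 2 147 operons were called (25.2% of all pairs), and with limma 145 (12.8%, against 23.9%). Of the operons called for RNA and for RPFs, 195 of 199 had the same sign. The 569 operons called for RNA had the same sign in 470, 435 and 421 cases in the 3 RPF Torin 1 libraries and in 490, 490 and 457 cases in the 3 RPF DMSO libraries, all of which are outside the RNA test. Among them RPF DMSO replicate 1 is a library in doubt, with r = 0.950 to RNA Torin 1 replicate 3. Signs in RPF libraries were not counted for operons that were not called, or for all pairs.

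The ratio of RPFs to RNA, which measures ribosome load per mRNA, was then compared between second and first gene. In DMSO animals 12 operons (1.06%, against 2.86% of all pairs) were called, 5 with the higher ratio in the second and 7 in the first gene, and 64 and 65 passed an unadjusted p of 0.05 (5.65% and 5.74%, against 9.74% and 9.83% of all pairs). RPF DMSO replicate 1 mattered here: without it 103 operons (9.10%, against 8.49% of all pairs) were called, 48 and 55 in the 2 directions, including 8 of the 12. None was called without RPF DMSO replicate 3 or without all the libraries in doubt, and 3 with limma. Shares of all pairs under these settings are not given, so whether the loss is particular to operons cannot be read from them. Leaving out RNA DMSO replicate 1, 2 or 3 left 0.265%, 0.177% or 0.265%, against 1.12%, 0.930% or 1.22% of all pairs. In Torin 1 animals edgeR called 0 operons (0% of all pairs), with 73 higher and 82 lower at an unadjusted p of 0.05 (6.45% and 7.24%, against 6.40% and 6.76% of all pairs) and 0 by limma. With the shared collection of RPFs and RNA as a block, 40 operons (3.53%, against 6.04% of all pairs) were called, 15 higher and 25 lower, and 22 (1.94%, against 3.65%) without RNA Torin 1 replicate 3.

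The 12 operons kept their sign in 12, 12 and 8 cases in Torin 1 collections 1, 2 and 3. In the operon with the smallest p, on scaffold 23 (- strand), GSOIDG00008008001 (447221 to 447874, 3 coding exons) follows GSOIDG00008009001 (447902 to 449087, 5 coding exons) after 27 bp. The second gene had 8.42, 6.92 and 22.0 RPM per kb in RPFs of Torin 1 animals and 50.7, 11.5 and 12.1 in RPFs of DMSO animals, and 53.3, 129 and 60.9 in RNA of Torin 1 animals and 140, 121 and 142 in RNA of DMSO animals. The first gene had 31.3, 168 and 115 RPM per kb in RPFs of Torin 1 animals and 126, 18.1 and 43.4 in RPFs of DMSO animals, and 3.90, 1.76 and 123 in RNA of Torin 1 animals and 3.27, 3.65 and 3.42 in RNA of DMSO animals. The gene with less RNA thus carried more footprints in each of the 6 RPF libraries, and its RNA was low in 5 of 6 libraries and high in RNA Torin 1 replicate 3. The ratio differed by -6.51 log2 units between second and first gene (SE 0.60, adjusted p = 0.00941), and the call was lost only without RPF DMSO replicate 3 (adjusted p = 0.078) and without the libraries in doubt (0.062) among the alternatives tried. The second gene had 576, 5 and 2 counts in RPF DMSO replicates 1, 2 and 3.

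Other called operons, picked on the same ratio, had the same arrangement. On scaffold 21, the ratio of GSOIDG00007826001 differed by -4.60 (SE 0.62, adjusted p = 0.0126) from that of the first gene, GSOIDG00007827001, described as CCDC19 (a coiled-coil domain protein). The second gene had 28.0, 12.1 and 53.5 RPM per kb in RPFs of Torin 1 animals and 115, 12.5 and 32.6 in DMSO animals, against 65.8, 187 and 119 and then 153, 22.9 and 59.9 for the first gene. The first gene was higher in each RPF library, although the second gene had 185 to 240 RPM per kb in RNA of DMSO animals and the first 9.01 to 19.9. On scaffold 14 the second gene GSOIDG00003750001 differed by -5.23 (SE 0.98, adjusted p = 0.0349, 0.064 without RPF DMSO replicate 1) from its first gene GSOIDG00003749001, described as morn repeat-containing protein 5. On scaffold 234 GSOIDG00007047001 differed by -6.22 from GSOIDG00007046001 (SE 1.24, adjusted p = 0.042), and in Torin 1 collection 3 the difference had the other sign (2.32). In the other direction, GSOIDG00000019001 on scaffold 1 had a ratio 7.73 above that of GSOIDG00000020001, 18 bp upstream of it (SE 1.33, adjusted p = 0.0263). Its footprints were at 7.06, 69.6 and 125 RPM per kb in Torin 1 animals and 101, 8.70 and 75.8 in DMSO animals, and its RNA at 1.94, 0.506 and 165 in Torin 1 animals and 2.78, 0.799 and 0.0923 in DMSO animals. GSOIDG00001086001 on scaffold 10 stood 5.28 above GSOIDG00001085001 (SE 1.11, adjusted p = 0.0487). Without RPF DMSO replicate 1 the differences of the CCDC19 operon, GSOIDG00007047001, GSOIDG00000019001 and GSOIDG00001086001 were -4.77, -4.71, 7.35 and 3.97, and each was still called. These fits rest on few counts. In RPF DMSO replicates 2 and 3, GSOIDG00007047001 had 7 and 3 counts, GSOIDG00000020001 7 and 6, GSOIDG00001085001 13 and 17 and GSOIDG00007826001 20 and 20. GSOIDG00000019001 had 39, 8 and 2 counts in RNA of DMSO animals. The ratio of single genes moved more without RPF DMSO replicate 1, to 1.44 for GSOIDG00007046001 (5.77 with that library) and 1.74 for GSOIDG00001086001 (4.36 with it). The gene with the higher ratio in these 6 operons was in each case the one with less RNA in DMSO animals. That RNA is the denominator of the ratio on which these operons were picked, so this is partly built in. The RNA of the gene with the higher ratio was highest, among the RNA libraries, in RNA Torin 1 replicate 3.

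**Figure D4:**
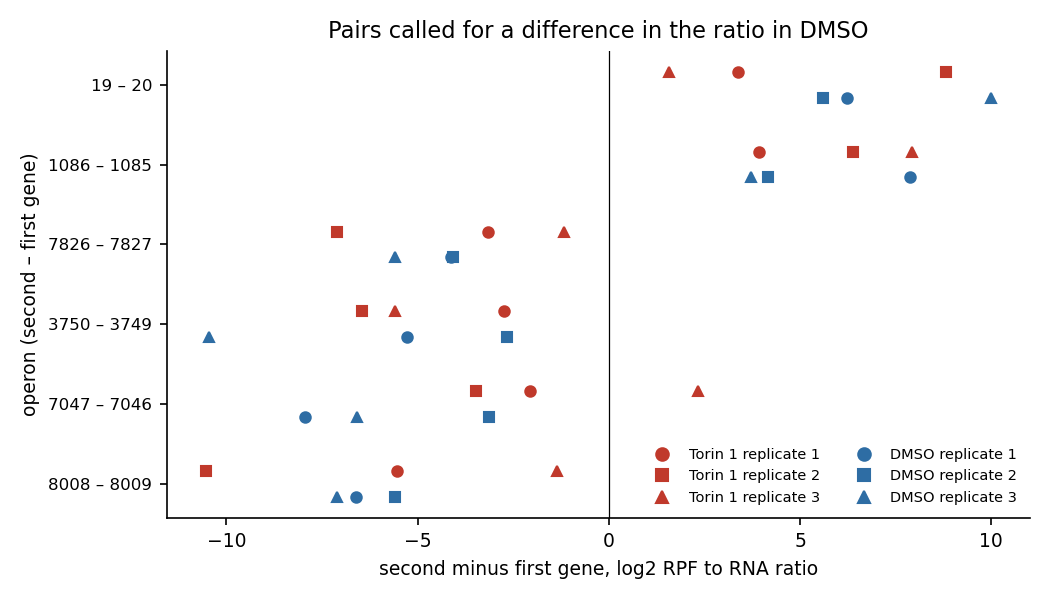
Difference in log2 RPF to RNA ratio, second minus first gene (x axis), for the 6 named operons called in DMSO animals (identifiers shortened to their digits). Each point is a collection of animals (red Torin 1 above blue DMSO, shapes for replicates), and the 3 DMSO values of an operon lie on one side of 0, as do the Torin 1 values except for GSOIDG00007047001 with GSOIDG00007046001 in collection 3 (2.32).

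Summed axoneme markers, from the 10 genes described as parts of cilia and sperm tails (4 of them members), were uneven between libraries. They reached 2491, 8094 and 2785 RPM in RPFs of Torin 1 animals and 9305, 722 and 1997 RPM in RPFs of DMSO animals. In RNA they reached 832, 157 and 6709 RPM in Torin 1 animals and 168, 161 and 32.8 RPM in DMSO animals. The highest RNA value was again in RNA Torin 1 replicate 3 and the highest RPF value in RPF DMSO replicate 1, with RPF Torin 1 replicate 2 next and both replicate 2 RNA libraries low. The 4 testis markers summed to 1510 RPM in RNA Torin 1 replicate 3 and 1781 RPM in RPF DMSO replicate 1, against 2.33 to 109 RPM in the other 10 libraries. The descriptions cover only genes that the study picked from these libraries. Their part in the ratios was not tested.

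Operons with ribosomal protein genes were followed from the study's list. Ribosomal proteins and translation factors are encoded in vertebrates by TOP mRNAs, which begin with a run of pyrimidines and depend on mTOR for their translation. Of the 88 orthologs of such genes and of S6 kinases that the study lists, 24 were members (16 second and 8 first genes, 21 of them ribosomal proteins). They fell in 18 complete operons, 6 with both genes on the list and 12 with one, and 16 of these operons are described singly here (5 and 11).

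Where both genes were on the list, their RNA levels differed less than in the operons with 1 listed gene. The 5 operons pair proteins of the large and small ribosomal subunits (RPL30 with RPS25, RPL35 with RPS19, RPL6 with RPS16) or 2 proteins of the large one (RPL10A with RPL22, RPL5 with RPLP2). Their RNA differences in DMSO animals had sizes of 0.43 to 1.41 log2 units (median 0.54, against 0.85 for all 2-gene operons). For example, RPL30 (GSOIDG00006083001, scaffold 2, 1557480 to 1558231, - strand) had 2120, 3113 and 1462 RPM per kb in RNA of Torin 1 animals and 2079, 3124 and 2558 in DMSO animals, against 1719, 2068 and 840 and then 1894, 2070 and 1377 for RPS25 (GSOIDG00006084001, 1558259 to 1558849), which lies 27 bp upstream. RPL30 was higher in each of the 6 RNA libraries, and the difference of 0.54 (SE 0.20) had an adjusted p of 0.0797. RPL35 exceeded RPS19 by 0.43 (adjusted p = 0.0712), and RPL10A, RPL5 and RPL6 differed from their first genes by -0.47 (0.0396), -0.59 (0.0196) and -1.41 (0.00261). RPL10A, RPL5 and RPL6 were thus called, against 50.3% of all 2-gene operons, and RPL6 lay above the median size of all operons. The calls of RPL10A and RPL5 were lost with limma (adjusted p = 0.0955 and 0.0541) and without RNA DMSO replicate 1 (0.206 and 0.122) or 2 (0.175 and 0.101).

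Where one gene was on the list, it was far above its neighbour. It was the higher gene in 10 of 11 operons in each of the 12 libraries, with a median difference of 4.19 log2 units in RNA of DMSO animals (-3.65 to 12.0, from mean log2 levels). RPLP0 (GSOIDG00012159001, scaffold 445, 192 to 1616, - strand), a protein of the ribosomal stalk, had 1365, 1606 and 810 RPM per kb in RNA of Torin 1 animals and 1645, 1665 and 1630 in DMSO animals. Its first gene GSOIDG00012160001 (1644 to 3773), 27 bp upstream, had 2.76, 0.370 and 0.623 RPM per kb in RNA of Torin 1 animals and 0.313, 0.351 and 0.223 in DMSO animals. The pair differed by 12.46 (SE 0.28, adjusted p = 0.000893), the largest difference in RNA among the named operons. The stalk protein gene RPLP2 (GSOIDG00003622001) exceeded GSOIDG00003621001 by 7.64 (SE 0.45), RPL9 exceeded GSOIDG00001036001 by 6.77 (SE 0.36), and RPL27 exceeded GSOIDG00016261001, whose model it overlaps by 1 base, by 6.09 (SE 0.17). EIF3E, a subunit of an initiation factor, was 4.19 higher than GSOIDG00010921001 (SE 0.54), RPL3 3.48 higher than GSOIDG00014880001 (SE 0.34), RPL12 3.25 higher than GSOIDG00003869001 (SE 0.25) and RPS29 2.92 higher than GSOIDG00009154001 (SE 0.20). These 8 operons have the listed gene in second place, and all had adjusted p values of 0.000893 to 0.00451. Listed first genes were as far above: GSOIDG00015545001 differed by -4.09 log2 units from RPS6 (SE 0.28, adjusted p = 0.00137).

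The exception was GSOIDG00004766001, one of 2 models named EEF1B2, an exchange factor of translation elongation. It had 1.65, 3.17 and 4.29 RPM per kb in RNA of Torin 1 animals and 3.39, 4.20 and 8.07 in DMSO animals, against 19.6, 59.2 and 37.9 and then 53.9, 56.7 and 86.9 for its first gene GSOIDG00004767001 (difference -3.72, SE 0.28, adjusted p = 0.00155). The other EEF1B2 model, GSOIDG00014951001, is a first gene, and its second gene GSOIDG00014952001 differed from it by -4.46 (SE 1.01, adjusted p = 0.0208, 0.0599 without RNA DMSO replicate 1 and 0.0537 without replicate 2). Counts of the 2 EEF1B2 models and of the 2 RPLP2 models are uncertain, since it is not stated how reads that match several positions were counted.

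**Figure D5:**
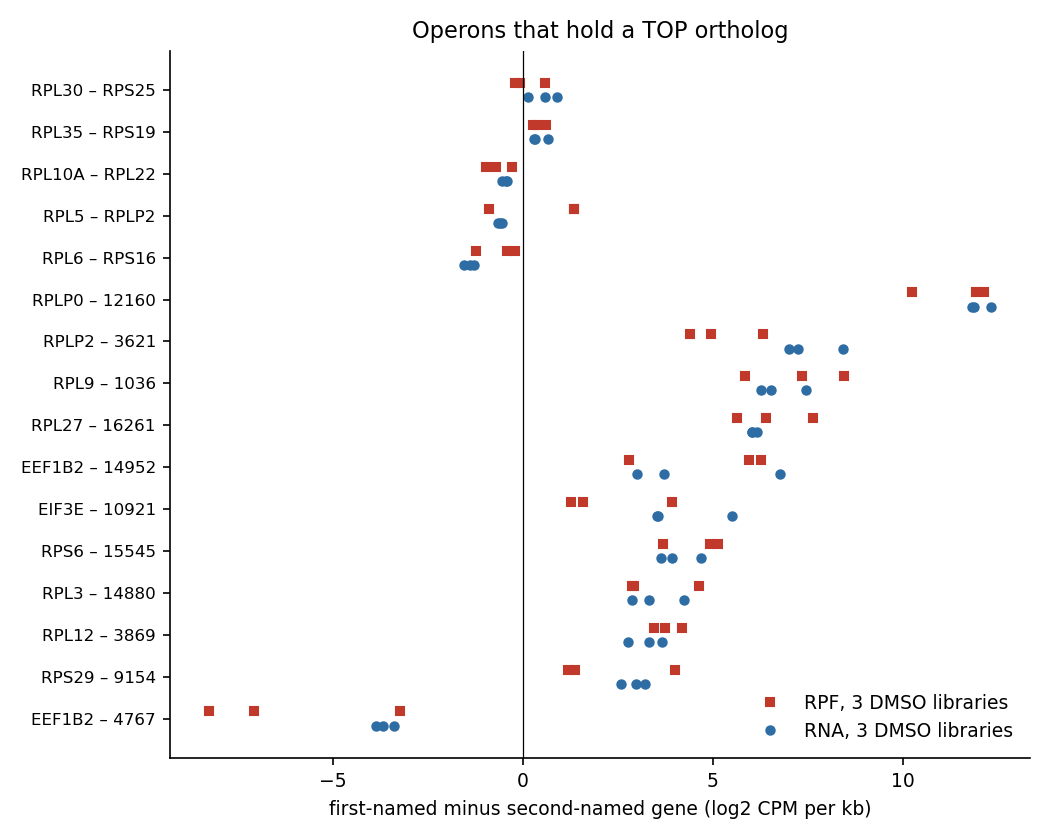
Difference between the genes of 16 operons with a gene on the list of TOP orthologs (x axis, log2 CPM per kb, the gene named first minus the other), in each RPF (red squares) and RNA (blue circles) library of DMSO animals. The upper 5 operons have both genes on the list, with fitted RNA differences of 0.43 to 1.41 in size. In 10 of the other 11 the listed gene, named first, is the higher one.

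With Torin 1, footprints of the listed members were lower in each of the 24, with a median change of -1.49 log2 units, against -0.59 for their 12 neighbours off the list and -0.38 for the 2385 members. None of the 24 was called by edgeR after adjustment (0 of 24, against 0% of 14574 genes), and 13 were lower at an unadjusted p of 0.05, as were 600 of the 14574 genes (4.12%). Without RPF DMSO replicate 1 the median of the 24 was -1.16, that of the neighbours 0.02, and 22 of the 24 were negative. RNA of the 24 changed by a median of -0.22 and that of the neighbours by 0.12. Translational efficiency, the change in RPFs beyond that in RNA, had a median of -1.11 for listed members and -0.76 for neighbours. It was -0.24 for the 2385 members and -0.46 for the 14574 genes. By edgeR, 0 of the 24 were lower in efficiency at an unadjusted p of 0.05, against 1093 of the 14574 genes (7.50%). Without RPF DMSO replicate 1 the efficiency medians of listed members and neighbours were -0.80 and 0.09. In the 12 operons with one listed gene, the footprint change of the listed gene lay below that of its neighbour in 10, with and without that library, and its efficiency change in 9, or in 7 without it. As a share of all RPF counts, the 24 took 0.299%, 0.219% and 0.485% in Torin 1 animals against 1.36%, 0.640% and 0.916% in DMSO animals. The highest of these shares came from RPF DMSO replicate 1. In RPF Torin 1 replicate 1, tested genes with a model held 76.4% of all counts, against 98.7% to 99.8% in the other RPF libraries. How often other gene sets of this size differ as much was not counted. The list was chosen by orthology and its response was known from these data, so the direction is not independent evidence.

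Over the 2385 members, RPFs were set against RNA in DMSO animals. RPFs exceeded RNA in 103 members (4.32%, against 6.79% of all 14574 genes) and fell short of it in 43 (1.80%, against 1.21%), which makes 146 (6.12%, against 8.00%) by edgeR with Benjamini-Hochberg adjustment. The median ratio was -0.31 for members, 0.17 for all genes and 0.63 for genes outside operons, on the log2 scale. It was -0.52 in operons of 3 or 4 and -0.62 in those of 5 or more, so a low ratio is not particular to 2-gene operons. Without RPF DMSO replicate 1 the medians of these 3 operon classes were -0.68, -0.78 and -0.95, from short to long operons. Among the called members both positions contributed, with 46 second and 57 first genes higher and 23 second and 20 first genes lower. Without RPF DMSO replicate 1, 101 members were higher (4.23%, against 6.91% of all genes) and 456 lower (19.1%, against 12.9%), with 229 second and 227 first genes among the lower ones. Without RNA DMSO replicate 3 no member was called, 3 (0.126%, against 0.405% of all genes) were called without RPF DMSO replicate 3, and without RNA DMSO replicate 1 and 2 the shares were 3.90% and 3.27% (6.00% and 4.74% of all genes). DESeq2 called 10.5% (12.6% of all genes). With the shared collection as a block, 105 members were higher and 69 lower (7.30%, against 9.28% of all genes). Leaving out RPF DMSO replicate 1 thus raised the number lower about as much in second as in first genes and hardly changed the number higher.

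Most called second genes had a first gene with a ratio of the same sign. Of the 46 second genes with more RPFs than RNA, all of them in complete operons, 39 had a first gene with the same sign and 32 a first gene that was called too. Both genes were called higher in 32 operons, lower in 4 and in opposite directions in 1, out of 105 with a called gene. Without RPF DMSO replicate 1, 18 operons were called higher and 69 lower in both genes, and 12 in opposite directions, out of 451. The nearest class, neighbours outside operons 61 to 200 bp apart, had both genes higher in 33 of 1337 pairs (2.47%, against 2.83% of the operons and 1.52% of all pairs). Both genes were lower in 0.353% of the operons, 0.150% of these neighbours and 0.0996% of all pairs. In the fit without RPF DMSO replicate 1 the shares were 1.59%, 1.50% and 1.11% for both higher and 6.10%, 4.79% and 3.42% for both lower. Across pairs the ratios of second and first gene in DMSO animals correlated at r = 0.447 in the operons and 0.440 in these neighbours (0.318 and 0.385 without collection 1), a description over pairs that share libraries. The correlation is thus not particular to operons.

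The named members with more RPFs than RNA include an operon of axoneme genes. On scaffold 11 (- strand), CCDC65 (GSOIDG00002337001, 669427 to 674268, 9 coding exons) follows RSPH9 (GSOIDG00002338001, 674311 to 675954, 8 coding exons) after 42 bp. Both encode parts of the axoneme, the microtubule core of motile cilia and sperm tails: RSPH9 a radial spoke head protein and CCDC65 a protein of the complex that regulates dynein. CCDC65 had 50.1, 90.4 and 77.2 RPM per kb in RPFs of Torin 1 animals and 584, 22.0 and 53.8 in RPFs of DMSO animals, and 22.1, 6.15 and 712 in RNA of Torin 1 animals and 5.20, 4.76 and 0.959 in RNA of DMSO animals. RSPH9 had 298, 1117 and 445 RPM per kb in RPFs of Torin 1 animals and 1072, 82.1 and 305 in RPFs of DMSO animals, and 54.3, 9.54 and 840 in RNA of Torin 1 animals and 11.6, 9.25 and 1.55 in RNA of DMSO animals. Both genes were highest in RNA in Torin 1 replicate 3, and CCDC65 was highest in RPFs in DMSO replicate 1. In DMSO animals RPFs exceeded RNA by 6.23 (SE 1.24, adjusted p = 0.0148) for CCDC65 and by 6.33 (SE 1.07, adjusted p = 0.00866) for RSPH9, and by 3.53 and 4.85 without RPF DMSO replicate 1. The same values of the axoneme markers as above stand beside these results, and their part was not tested.

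The 17 complete operons with a description for both genes hold the 6 ribosomal pairs, CCDC65 with RSPH9 and 10 more. They were singled out after their values were seen. On scaffold 36, GSOIDG00010801001 and GSOIDG00010800001 are both described as axonemal dynein heavy chains, the motors of cilia. They had 201, 21.7 and 46.0 RPM per kb (second gene) and 178, 19.5 and 58.2 (first gene) in RPFs of DMSO animals, and 5.02, 4.12 and 0.959 and then 4.26, 3.94 and 0.931 in RNA. The 2 models tracked each other in each library, with RPFs over RNA by 5.04 (adjusted p = 0.012) and 5.11 (0.00944), or by 3.50 and 3.83 without RPF DMSO replicate 1. A second dynein pair on scaffold 5 (GSOIDG00013210001 and GSOIDG00013211001) had ratios of 5.21 (0.0208) and 5.56 (0.0197), or 3.02 and 3.29 without that library. HCN channel models on scaffold 38 (GSOIDG00011011001 and GSOIDG00011012001), named for pacemaker channels that open on hyperpolarization, had ratios of 4.68 (0.0107) and 4.40 (0.0181), or 3.36 and 2.67 without it. All 6 stayed called without it. In these 3 operons RNA of the 2 genes differed by 0.12, 0.18 and -0.72 (adjusted p = 0.707, 0.571 and 0.282). The myosin heavy chain models on scaffold 37 (GSOIDG00010985001 and GSOIDG00010986001, 1 bp apart) differed by 0.40 in RNA (0.323), and oikosin 4c, a protein of the house that the animal secretes, by 0.16 (0.615) from its first gene. Whether adjacent models with the same description are separate genes or parts of one was not tested. Of the 10 operons, 1 had a called RNA difference, against 50.3% of all 2-gene operons and 60.4% of all pairs. In it, deoxyhypusine hydroxylase (GSOIDG00012467001), which modifies an initiation factor, exceeded methyltransferase-like protein 4 (GSOIDG00012466001) by 2.53 (adjusted p = 0.00337).

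Other described members with more RPFs than RNA in DMSO animals were testis-specific serine kinase 1 (GSOIDG00015162001, 7.87, SE 1.50, adjusted p = 0.0128), an EF-hand calcium binding protein (GSOIDG00012451001, 7.52, SE 1.67, 0.0204) and a regulatory subunit of a protein phosphatase (GSOIDG00010903001, 7.29, SE 1.48, 0.0158). Without RPF DMSO replicate 1 they were at 4.02, 2.68 and 3.76, and the call of the EF-hand gene was lost (adjusted p = 0.0698). The largest ratios among members that met the naming rule were those of GSOIDG00003616001 (8.74, 4.59 and no call without that library, on 0, 8 and 1 counts in RNA of DMSO animals) and GSOIDG00006414001 (8.46, 5.87 without it). Of members with fewer RPFs than RNA, GSOIDG00003133001 was at -3.26 (SE 0.68, adjusted p = 0.0169) and GSOIDG00010390001 at -2.96 (SE 0.69, 0.0246), the 2 first genes with very short exons named above.

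Torin 1 was compared with DMSO for RNA, RPFs and translational efficiency. edgeR called 0 members for RNA, 0 for RPFs and 0 for efficiency, and 0% of the 14574 genes in each. At an unadjusted p of 0.05, 136 members were higher (5.70%, against 10.1% of all genes) and 2 lower (0.0839%, against 0.0274%) for RNA. In the same order there were 13 (0.545%, against 1.30%) and 107 (4.49%, against 4.12%) for RPFs, and 7 (0.294%, against 0.206%) and 128 (5.37%, against 7.50%) for efficiency. DESeq2 called 9 members higher for RNA (0.394%, against 0.586% of all genes), 0 for RPFs, and 1 higher and 12 lower for efficiency (0.561%, against 1.00%). Median changes of members were -0.19 for RNA (all genes 0.22, outside operons 0.94), -0.38 for RPFs (all genes -0.24) and -0.24 for efficiency (all genes -0.46). Operons of 3 or 4 and of 5 or more had RNA medians of -0.35 and -0.36. Without RPF DMSO replicate 1 the members' medians were -0.08 for RPFs (all genes 0.01) and 0.03 for efficiency (all genes -0.15). Without the libraries in doubt, which leaves RNA Torin 1 replicate 1 alone in its group, the efficiency median was 0.57 (all genes 0.17). The sign of the members' efficiency median thus depended on these libraries. Summed muscle markers (14 described genes, 4 of them members) were at 4563, 617 and 1754 RPM in RNA of Torin 1 animals, against 955, 602 and 61.6 RPM in DMSO animals. Those of the house epithelium (12 described genes, 1 of them a member) were at 5593, 946 and 1136 RPM in RNA of Torin 1 animals, against 1312, 945 and 216 RPM in DMSO animals. Both sums were highest in RNA Torin 1 replicate 1 and lowest in RNA DMSO replicate 3, and their part in the RNA changes was not tested. Second and first genes had medians of -0.21 and -0.18 for RNA and of -0.40 and -0.37 for RPFs. RPF calls appeared when single libraries were left out, 32 members (1.34%, against 1.42% of all genes) without RPF DMSO replicate 2, 7 (0.294%, against 0.268%) without replicate 3 and 5 (0.210%, against 0.316%) without replicate 1. These shares were near those of all genes. RPFs against RNA in Torin 1 animals gave 0 members by edgeR (0% of all genes), with 33 higher (1.38%, against 2.86% of all genes) and 316 lower (13.2%, against 9.21%) at an unadjusted p of 0.05. DESeq2 called 1.25% (1.12% of all genes), the fit with the collection as a block 9 members (0.377%, against 0.727%) and that without RNA Torin 1 replicate 3 3.52% (3.85% of all genes). The median ratio was -0.64 for members, -0.64 for operons of 3 or 4, -0.79 for operons of 5 or more and -0.42 for all genes.

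No operon was called by edgeR for a difference between its genes in the response to Torin 1, for RNA, RPFs or efficiency, and 0% of all 12045 pairs were in each. At an unadjusted p of 0.05 there were 5 higher and 7 lower for RNA, 4 and 7 for RPFs, and 8 and 11 for efficiency (0.353% to 0.972% of operons, against 0.971% to 1.30% of all pairs), and limma called 0 in each. RNA changes of the 2 genes correlated at r = 0.715 across operons, and at 0.771 without the libraries in doubt, against 0.334 for pairs in longer operons. Outside operons r was 0.572 for neighbours 61 to 200 bp apart (0.623 without the libraries in doubt), 0.410 at 201 to 1000 bp, 0.247 at 1001 to 5000 bp and 0.034 past 5000 bp, so a shared RNA change is not particular to operons either. RPF changes correlated at 0.065 in 2-gene operons and at 0.023 in neighbours 61 to 200 bp apart. These are descriptions over pairs that share the same libraries, and the shallow RPF libraries give RPF changes more counting error than RNA changes.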

How the data were processed

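Per the labels and the study's methods, RPFs and total RNA of day 6 females were sequenced after rRNA depletion. The authors mapped reads with TopHat2 2.0.13 after removing rRNA and tRNA reads with Bowtie2 2.1.0 and made counts for each protein-coding gene by featureCounts. Raw counts were deposited, without any normalization, and 0 columns lacked a sample. Strand setting and treatment of reads with several positions are not given in the sources used here. The authors' deposited annotation is of another kind. It holds positions of 18020 models on scaffolds, counted from 1, of the Genoscope gene set, and gave operons, exons and lengths. Of 17212 counted genes 17113 had a model. Sequences are not shown.

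Genes with at least 100 reads were kept, as in the study. Counts were fitted in R 4.3.3 with edgeR 4.0.16 (TMM, quasi-likelihood), adjusted over 14574 genes or 12045 pairs, threshold 0.05. Torin 1 was set against DMSO in RNA and in RPFs (6 libraries each), efficiency was the interaction of assay and treatment over 12 libraries (standing in for the study's package babel, which was not used here), and RPFs were set against RNA within each treatment. Pairs had 2 columns per library, a term per library and offsets for library size and exon length. Standard errors were derived as the fold change over the root of F. Log2 levels used a prior count of 2. The scripts were tested on simulated data.

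RPFs and RNA of one treatment and replicate came from one collection of animals, so the fit with that collection as a block is given where it changed a call. Deviations of such libraries from their group means correlated at 0.183, -0.116 and 0.143 (Torin 1) and 0.006, -0.103 and -0.086 (DMSO). Alternatives were other scaling factors, DESeq2 1.42.0 or limma 3.58.1, other read filters, other gap limits (30 and 100 bp), the block and libraries left out. Leaving out the 4 libraries in doubt together was chosen after seeing the data.

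Named were list members with their partners, the 5 most abundant operons, the 5 largest called differences in each direction in RNA and in the ratio with 20 or more counts on average and one sign in the 3 replicates, the same for RPFs against RNA, and up to 5 more per direction with a description, with at most 2 per direction by identifier alone. Results of 2 operons with a listed gene are not reported here. Descriptions come from a study table of genes picked on these data. The members and lists were chosen with earlier results of these data known.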

Additional observations from a re-analysis of the deposited data

How the results depend on the processing

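Of 185 summary results under other settings, 149 stayed within 1.5 times the reported share of members or operons called, and 36 moved. With DESeq2 the share of members was 0.394% for RNA and 0.561% for efficiency (Torin 1 against DMSO, 0% with edgeR), 10.5% for RPFs against RNA in DMSO animals and 1.25% in Torin 1 animals. With limma 12.8% of operons were called for the RPF level and 0.265% for the ratio in DMSO animals. With no read filter 0.0380% of members (1 member, 0.0236% of all genes) were called for RPFs with Torin 1. With the replicate block 0.377% of members and 3.53% of operons were called for RPFs against RNA in Torin 1 animals, and no other share moved. Leaving out both replicate 2 RNA libraries gave 3.27% of members for RPFs against RNA in DMSO animals and 0.177% of operons for the ratio. Leaving out the libraries in doubt gave 0.0839% for efficiency, 19.0% and 7.09% for RPFs against RNA in DMSO and Torin 1 animals, and 0% and 4.24% of operons for the ratio in DMSO and Torin 1 animals. The cause of these moves was not tested.

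Leaving out one library at a time gave 0% to 23.4% of members for RPFs against RNA in DMSO animals, 0% to 3.52% in Torin 1 animals and 0% to 1.34% for RPFs with Torin 1. It gave 26.8% to 53.6% of operons for the RNA level, 6.54% to 28.4% for the RPF level, 0% to 9.10% for the ratio in DMSO animals, 0% to 1.94% in Torin 1 animals and 0% to 0.0883% for the RPF change. All genes and pairs moved too. Without RPF DMSO replicate 1, 2886 of the 14574 genes were called for RPFs against RNA in DMSO animals. In that setting 36.1% of all pairs were called for the RPF level and 8.49% for the ratio. RNA and efficiency changes stayed at 0%. Of the named operons, GSOIDG00000966001 with GSOIDG00000965001 ranged between -0.037 (without RNA DMSO replicate 1) and 0.33 (without replicate 3) for RNA, against 0.14 with all. For RNA, the status of a named operon, called or not called, stayed the same in 305 of 326 alternatives. Ratio calls were kept in 60 of 117 alternatives and gene ratio calls in 138 of 175.

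DESeq2's size factors moved the median of all genes by -0.23 for efficiency and by 0.11 for the ratio in Torin 1 animals. Relative to all genes, members stood at 0.21 and 0.25 for efficiency under the 2 scalings. Deviations of same-numbered Torin 1 and DMSO libraries correlated at 0.657, -0.133 and 0.202 for RNA and -0.062, 0.014 and -0.014 for RPFs, and a block on that number changed no call. The shallow RPF libraries limit the RPF comparisons, and leaving out the deepest one moved them as well.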
